A study of Mus musculus with 19 samples.

Results

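Transcripts of 10 tumour necrosis factor (TNF) receptor family genes were followed across naive CD8 T cells and CD8 T cells from liver lesions and culture. The members were taken by name from the 53656 genes listed in each library's count table: Tnfrsf9, Tnfrsf4, Tnfrsf18, Tnfrsf25, Tnfrsf1a, Tnfrsf1b, Tnfrsf14, Tnfrsf26, Cd27 and Cd40lg. All 10 were found, and all 10 had enough counts to be tested in each comparison. Cd40lg encodes a ligand (CD40L) and not a receptor, so the set holds 9 receptors and 1 ligand.

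Receptors of this family sit on the cell surface and bind trimeric ligands of the TNF family. Most of those that costimulate T cells carry no death domain and signal through TRAF adaptors to NF-kB, while TNFR1 (Tnfrsf1a) and DR3 (Tnfrsf25) carry a death domain that can recruit TRADD. In CD8 T cells 4-1BB (Tnfrsf9), OX40 (Tnfrsf4) and GITR (Tnfrsf18) are known as receptors that antigen stimulation induces or raises, whereas CD27 is already present on resting cells.

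The 19 libraries came from C57BL/6 mice and fell into 7 groups. Every group except OT-I held CD8 T cells with the transgenic TCR SV40-I, which recognises an epitope of SV40 large T antigen, while OT-I cells recognise an epitope of ovalbumin. The naive group (n = 3) was sorted as CD8, CD44low. The late SV40-I group (n = 3) was sorted on CD8 and Thy1.1 and the late OT-I group (n = 3) on CD8 and Ly5.1, both at days 20 to 21 from malignant liver lesions, so these groups differ in receptor and in congenic marker together. At days 8 to 9 SV40-I cells from such lesions were sorted on CD8 and Thy1.1 as high (marker-high, n = 3) or low (marker-low, n = 3) for PD1, LAG3 and CD39. The cultured groups began as naive SV40-I cells that were activated through CD3 and CD28, given a retrovirus carrying GFP alone (GFP, n = 2) or TOX with GFP (TOX-GFP, n = 2), expanded in IL-2 and sorted as CD8+/GFP+. The labels give neither age nor genotype. Column headings of the marker-high tables carry the letters WT and those of the marker-low tables KO, so gate and genotype cannot be told apart in that comparison. Titles place the lesion groups in the liver, but the source entry of all samples reads splenocytes.

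Library totals ran from 37006508 to 54195918 counts, and the floor for a gene without a count was 3 counts per library, which is 0.0554 to 0.0811 CPM (counts per 1000000 counts of the library). Tox was at 156 and 118 CPM in the TOX-GFP libraries and at 13.8 and 21.4 CPM in the GFP libraries and so was higher where the labels say it was added. A 10-gene T cell list summed to at least 11798 CPM in every ex vivo library and to 6955 to 9493 CPM in the cultured libraries. The lowest ex vivo sum was that of marker-low replicate 2, beside 20063 and 19442 CPM in marker-low replicates 1 and 3. Levels in that replicate are thus from a library poorer in T cell transcripts. A macrophage list of 8 genes summed to 730 to 8629 CPM in marker-low, 3980 to 5750 in marker-high, 53.4 to 1057 in late SV40-I, 307 to 662 in late OT-I, 102 to 263 in naive and 3.86 to 7.39 in cultured libraries, with none of its genes at 0 in an ex vivo group and only Clec4f at 0 in the cultured groups. A hepatocyte list summed to more than 1000 CPM in 3 libraries, late SV40-I replicate 2 and late OT-I replicates 2 and 3. A CD4 and regulatory T cell list of 5 genes, whose cells are known to carry several of these receptors, summed to at most 69.7 CPM (marker-low replicate 2), with Foxp3 at 0 in late SV40-I. In these bulk samples fewer cells of a type and less RNA per cell cannot be told apart.

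Of the members, 6 lie on mouse chromosome 4 (GRCm38, as listed in the count tables), within a span of 10815433 bases. Tnfrsf4 (chr4:156013843-156016612) and Tnfrsf18 (chr4:156026164-156028895) are neighbours on the plus strand, 9551 bases apart. Tnfrsf9 (chr4:150914562-150946102), Tnfrsf25 (chr4:152115934-152120119), Tnfrsf14 (chr4:154921933-154928563) and Tnfrsf1b (chr4:145213463-145246870) are spread along the rest of that span. Tnfrsf1a (chr6:125349362-125362484) and Cd27 (chr6:125232622-125237010) share chromosome 6, Tnfrsf26 lies at chr7:143607659-143628722 and Cd40lg at chrX:57212143-57224042. Counting ignored strand, and 27.2% of the exon length of Tnfrsf18 overlaps a gene on the opposite strand. Counts of Tnfrsf18 are uncertain for that reason, by an amount that was not measured. For Tnfrsf26 the shared part was 3.33% and for Cd27 5.54% of the exon length, and the other members shared no exon bases with another gene.

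The 250 bases before a RefSeq start site are shown for 4 members on chromosome 4 whose levels went in opposite directions between groups: Tnfrsf9, Tnfrsf4 and Tnfrsf18, which were higher in late SV40-I than in naive cells, and Tnfrsf25, which was lower. They and the motifs were chosen with the levels known. The sequences are from RefSeq (GRCm38.p6), read 5′ to 3′ on the plus strand, and cover chr4:150919905-150920154 (Tnfrsf9), chr4:156013445-156013694 (Tnfrsf4), chr4:156026072-156026321 (Tnfrsf18) and chr4:152115684-152115933 (Tnfrsf25). By the gene bounds given above, the Tnfrsf9 window lies inside the counted gene, which starts at chr4:150914562. The Tnfrsf18 window runs past the start of the counted gene at chr4:156026164. Capitals mark matches on either strand to the NFAT core GGAAA or the TCF/LEF core CTTTGA.
Tnfrsf9: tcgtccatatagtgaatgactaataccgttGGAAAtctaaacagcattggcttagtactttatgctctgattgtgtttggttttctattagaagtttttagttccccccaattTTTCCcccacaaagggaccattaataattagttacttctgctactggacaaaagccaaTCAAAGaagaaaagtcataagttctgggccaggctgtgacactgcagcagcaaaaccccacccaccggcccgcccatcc
Tnfrsf4: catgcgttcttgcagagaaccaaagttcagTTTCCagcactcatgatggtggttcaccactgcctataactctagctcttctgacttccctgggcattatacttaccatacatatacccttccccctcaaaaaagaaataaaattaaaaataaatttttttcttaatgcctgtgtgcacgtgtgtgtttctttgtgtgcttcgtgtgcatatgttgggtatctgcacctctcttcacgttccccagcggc
Tnfrsf18: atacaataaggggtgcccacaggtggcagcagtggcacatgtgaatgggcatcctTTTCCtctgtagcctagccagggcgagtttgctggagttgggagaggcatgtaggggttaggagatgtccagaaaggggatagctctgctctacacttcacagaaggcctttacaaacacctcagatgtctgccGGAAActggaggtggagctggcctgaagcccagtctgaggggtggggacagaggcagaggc
Tnfrsf25: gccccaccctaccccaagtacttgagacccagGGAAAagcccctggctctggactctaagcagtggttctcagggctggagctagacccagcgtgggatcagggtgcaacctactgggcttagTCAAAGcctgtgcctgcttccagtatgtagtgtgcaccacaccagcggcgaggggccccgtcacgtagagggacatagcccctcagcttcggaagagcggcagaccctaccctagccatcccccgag
NFAT and TCF/LEF are transcription factors active after antigen stimulation and in resting T cells, respectively. The NFAT core matched 2 times in Tnfrsf9, 2 times in Tnfrsf18 and 1 time each in Tnfrsf4 and Tnfrsf25, and it matched somewhere in 55.6% of the 32851 promoter windows of the same length. The TCF/LEF core matched 1 time each in Tnfrsf9 and Tnfrsf25 and in 13.8% of all windows. The NF-kB consensus and the AP-1 motif TGANTCA, found in 3.9% and 6.75% of all windows, had no match in the 8 members whose promoters are in the table. Motifs were searched on both strands, and the matches shown do not overlap. Tnfrsf9 and Tnfrsf25, whose levels were opposite, each held both short motifs (TCAAAG is CTTTGA read on the other strand). Such matches describe the letters of the window only.

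**Figure D1:**
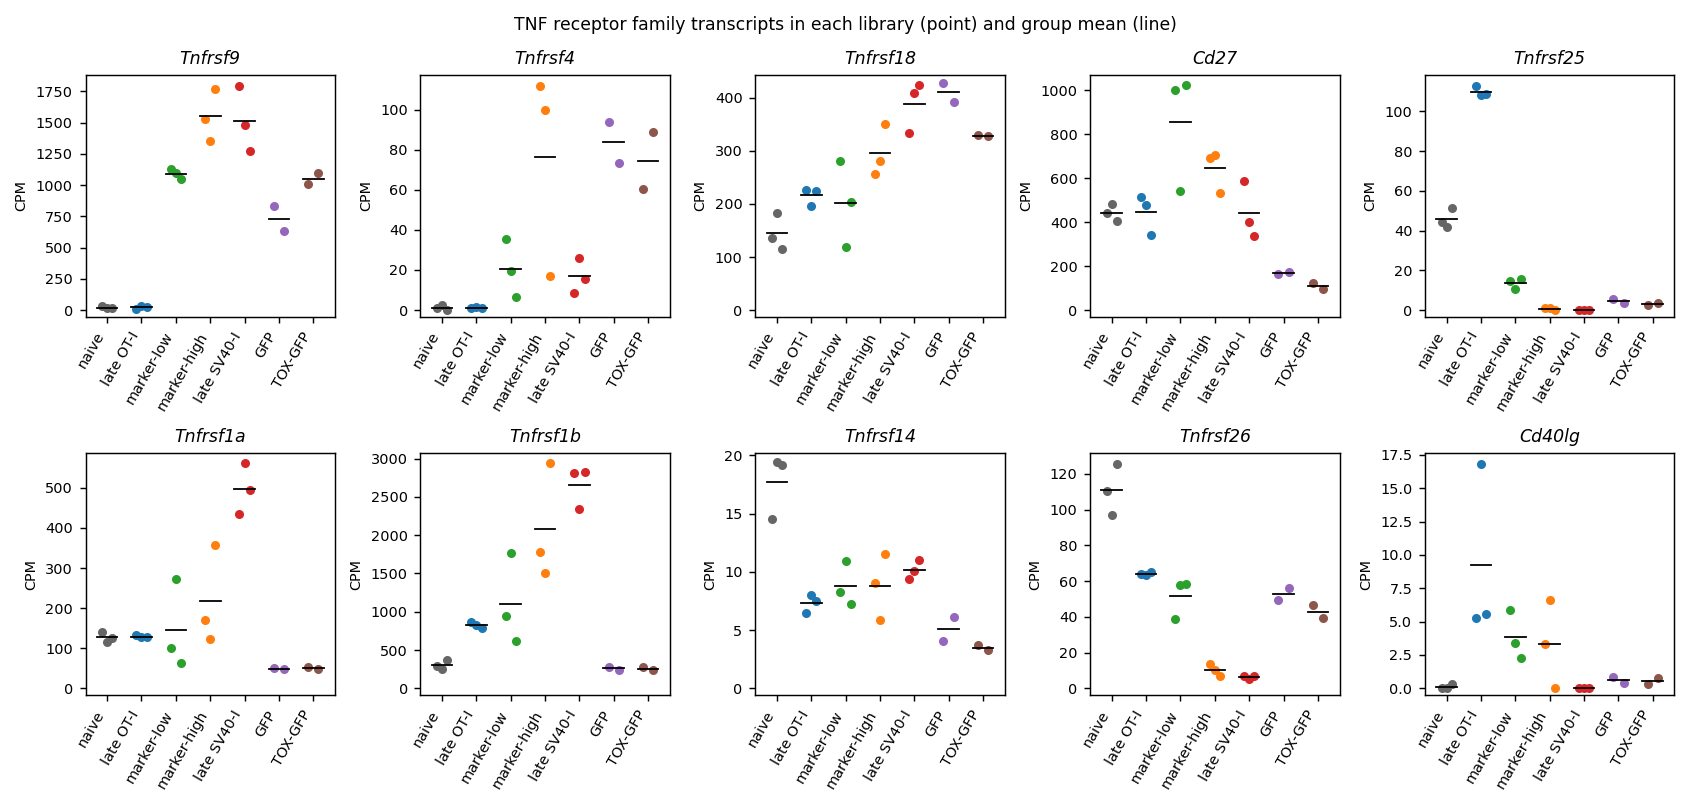
CPM (linear axis from about 0) of each of the 10 genes in each library (points) with the group mean (line), in 7 groups of 3 or 2 libraries. Tnfrsf9 sits at 1048 to 1796 CPM in the 9 SV40-I lesion libraries and at 12.2 to 31.2 CPM in naive and late OT-I libraries, while Tnfrsf25 is at 108 to 113 CPM in late OT-I and at most 0.0413 CPM in late SV40-I libraries.

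The late SV40-I and late OT-I groups compare lesion T cells whose receptors see different antigens. Of the 10 members, 7 were called at an edgeR adjusted p under 0.05, against 9.02% of the 16404 genes tested. Tnfrsf9, Tnfrsf4, Tnfrsf1a and Tnfrsf1b were higher in late SV40-I cells (4 of 10, against 4.91% of all genes), and Tnfrsf25, Tnfrsf26 and Cd40lg were lower (3 of 10, against 4.11%). The libraries of the groups did not overlap for 9 members, against 29.1% of all genes, Cd27 being the exception. The median difference of the members was 0.72 on the log2 scale and that of all genes was -0.04. Leaving out the 3 libraries with the highest hepatocyte sums, which leaves 1 late OT-I library assumed to vary like the others, kept 3 of the 7 calls, those of Tnfrsf9, Tnfrsf25 and Tnfrsf26.

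Tnfrsf9 encodes 4-1BB, a receptor that CD8 T cells gain on stimulation. Late SV40-I libraries 1 to 3 had 1796, 1483 and 1269 CPM, and late OT-I libraries had 12.2, 31.2 and 27.7 CPM. Every late SV40-I library was thus far above every late OT-I library, with a log2 difference of 6.08 ± 0.40 (SE) and an edgeR adjusted p of 3.91e-06. Naive libraries had 29.7, 15.6 and 13.8 CPM, within the same range as late OT-I cells, and the log2 difference between those groups was 0.26 ± 0.32 (adjusted p = 0.728). Lesion SV40-I cells already had the transcript at days 8 to 9, with 1130, 1099 and 1048 CPM in marker-low and 1532, 1356 and 1767 CPM in marker-high libraries. Both exceeded naive cells, by 5.85 ± 0.39 (adjusted p = 2.41e-06) and 6.33 ± 0.40 (adjusted p = 7.90e-07) on the log2 scale. The marker-high libraries all lay above the marker-low ones, but the log2 difference of 0.48 ± 0.32 did not pass the test (adjusted p = 0.649). From marker-high to late SV40-I cells the log2 difference was 0.02 ± 0.32 (adjusted p = 0.986).

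The gap in Tnfrsf9 between late SV40-I and late OT-I cells exceeded that between marker-high and marker-low cells. The difference of the 2 log2 differences was 5.61 ± 0.48 (adjusted p = 0.000131). Of all genes, 1.03% were called for that difference, and among the members Tnfrsf9 and Tnfrsf25 were.

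Tnfrsf4 encodes OX40, a receptor best known from activated CD4 T cells. Its CPM was 0.988, 2.39 and 0.218 in naive libraries and 0.928, 1.46 and 1.15 in late OT-I libraries. Late SV40-I libraries had 8.59, 25.9 and 15.7 CPM, above all of these, with a log2 difference from late OT-I of 3.89 ± 0.91 (adjusted p = 0.0178). That call was lost when any 1 late OT-I library was left out (adjusted p from 0.0709 to 0.0757). Marker-low libraries had 35.6, 19.5 and 6.73 CPM and marker-high libraries 112, 99.9 and 17.2 CPM. These groups overlapped, with marker-high replicate 3 below marker-low replicates 1 and 2, and the log2 difference of 1.83 ± 0.83 did not pass (adjusted p = 0.427). Against naive cells Tnfrsf4 was higher in marker-low cells by 4.17 ± 0.92 (adjusted p = 0.00945), in marker-high cells by 6.01 ± 1.00 (adjusted p = 0.00106) and in late SV40-I cells by 3.85 ± 0.91 (adjusted p = 0.0106) on the log2 scale. With summed hepatocyte CPM as a covariate the adjusted p was 0.0732 for marker-low and 0.0822 for late SV40-I cells. With summed macrophage CPM as a covariate, the adjusted p was 0.145 for marker-low and 0.0667 for marker-high. Each sum was lower in every naive library than in any library of the groups named with it. Covariate and group thus cannot be told apart in these differences.

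Tnfrsf18 encodes GITR, which resting T cells carry at a low level. It varied over a much narrower range than its neighbour Tnfrsf4. Naive libraries had 136, 183 and 115 CPM and late SV40-I libraries 334, 409 and 424 CPM, a log2 difference of 1.50 ± 0.29 (adjusted p = 0.00314). Late OT-I libraries had 227, 197 and 225 CPM, above all naive and below all late SV40-I libraries, yet neither difference passed the test (0.60 ± 0.29 above naive with adjusted p = 0.247, and 0.90 ± 0.29 below late SV40-I with adjusted p = 0.0725). In DESeq2 the latter had an adjusted p of 0.0222, and in a fit of those groups alone 0.0167. Marker-low libraries had 281, 118 and 204 CPM and marker-high libraries 256, 280 and 351 CPM, and the groups overlapped. The rise in marker-high over naive cells was 1.06 ± 0.29 on the log2 scale (adjusted p = 0.0191), a call that was lost without naive replicate 1 (adjusted p = 0.0645), naive replicate 3 (0.0828) or marker-high replicate 3 (0.0581), and with the hepatocyte (0.0706) or macrophage (0.16) covariate.

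Cd27 encodes a receptor for CD70 that naive T cells already carry. Its naive level of 440, 484 and 405 CPM overlapped the late OT-I level of 514, 479 and 339 CPM and the late SV40-I level of 587, 400 and 335 CPM. The log2 difference between the late groups was 0.05 ± 0.27 (adjusted p = 0.95), and its sign changed in 5 of 16 alternative settings. At days 8 to 9 marker-low libraries had 1000.1, 544 and 1025 CPM and marker-high libraries 692, 707 and 534 CPM. Every library of both groups lay above every naive library. The marker-low rise of 1.01 ± 0.28 on the log2 scale passed (adjusted p = 0.0253), but not without any 1 naive library or without marker-low replicate 1 or 3 (adjusted p from 0.0514 to 0.096), nor in a fit of marker-low and naive cells alone (0.0519). The marker-high difference of 0.57 ± 0.27 did not pass (adjusted p = 0.147).

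Tnfrsf25, which encodes the death-domain receptor DR3 for the ligand TL1A, ran against the inducible receptors. Late OT-I libraries had 113, 108 and 109 CPM and naive libraries 44.3, 41.8 and 51.5 CPM. The log2 difference of late OT-I from naive cells, 1.29 ± 0.72, did not pass (edgeR adjusted p = 0.338). It passed only in a fit of those groups alone (0.00376). In late SV40-I cells the 3 libraries together held 2 counts, both in replicate 3. Against the 14120 counts of late OT-I cells this was a ratio of 7990, with a 95% counting interval from 2210 to 66000, and edgeR gave an adjusted p of 5.64e-05. Against naive cells, with 6551 counts, the ratio was 3320 (interval 919 to 27400, adjusted p = 4.73e-05). The intervals cover counting error only.

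Levels of Tnfrsf25 at days 8 to 9 lay between those of naive and late SV40-I cells. Marker-low libraries had 14.5, 10.6 and 15.9 CPM, all below naive, with a log2 difference of -1.69 ± 0.72 that did not pass (adjusted p = 0.126). Marker-high libraries had 1.18, 0.844 and 0 CPM, all below marker-low, with a log2 difference from marker-low of -4.36 ± 0.83 (adjusted p = 0.0239). In that comparison 2 of the 10 members were called, against 1.19% of all genes, both of them lower (0.719% of all genes), and the libraries of 3 members did not overlap, against 16.3% of all genes. The Tnfrsf25 call did not hold in a fit of the marker-high and marker-low groups alone (adjusted p = 0.234, with 4 genes called in all), with the number in the table headings as a block (0.136), or without marker-low replicate 1 (0.0577), marker-low replicate 3 (0.0686) or marker-high replicate 2 (0.0935). The gap between the late groups exceeded that between the marker groups, with a difference of -8.29 ± 1.45 on the log2 scale (adjusted p = 0.0127). Those fitted log2 values include a group near 0 counts and depend on the prior count.

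Between marker-high and late SV40-I cells Tnfrsf25 was the 1 member called, against 5.33% of all genes (3.57% lower), at a ratio of 49.4 (interval 13.2 to 415, adjusted p = 0.0236). One marker-high library was at 0, so the groups overlapped. The call was lost without marker-high replicate 1 or 2 or without any 1 late SV40-I library (adjusted p from 0.0602 to 0.0957), and with the macrophage covariate (0.117).

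Tnfrsf26 encodes a short receptor of the family that lies beside the related decoy receptor genes Tnfrsf22 and Tnfrsf23 on chromosome 7, and it followed an order close to that of Tnfrsf25. Naive libraries had 110.3, 96.8 and 126 CPM, late OT-I libraries 64.2, 63.5 and 65.0 CPM, and late SV40-I libraries 6.78, 5.20 and 7.18 CPM. Each group lay apart from the next. The log2 difference of late OT-I from naive cells, -0.77 ± 0.26, did not pass (edgeR adjusted p = 0.0968). It passed in DESeq2 (0.0288) and in an edgeR fit of those groups alone (0.0232). Late SV40-I cells were lower than late OT-I cells by a log2 difference of -3.27 ± 0.28 (adjusted p = 2.03e-05) and lower than naive cells by -4.03 ± 0.29 (adjusted p = 1.91e-06). Marker-low libraries had 38.5, 57.9 and 58.5 CPM and marker-high libraries 13.9, 10.5 and 6.67 CPM, and the difference of -2.34 ± 0.27 passed (adjusted p = 0.00186). The difference from naive was -1.05 ± 0.26 for marker-low (adjusted p = 0.0159) and -3.39 ± 0.28 for marker-high cells (adjusted p = 5.02e-06), and the former was lost without naive replicate 3 (0.0626) or marker-low replicate 1 (0.066), and with the hepatocyte (0.168) or macrophage (0.149) covariate. The gap between the marker groups held without each single library and failed in the fit of the marker-high and marker-low groups alone (adjusted p = 0.105). The neighbour Tnfrsf22 had 30.5 to 46.5 CPM in late OT-I and 0.0206 to 2.77 CPM in late SV40-I libraries, a log2 difference of -4.88 ± 0.95 (adjusted p = 0.00601). Tnfrsf23 was at a mean of 2.42 and 0.355 CPM in those groups (adjusted p = 0.164). Since the 3 genes are related, reads could be split between them.

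**Figure D2:**
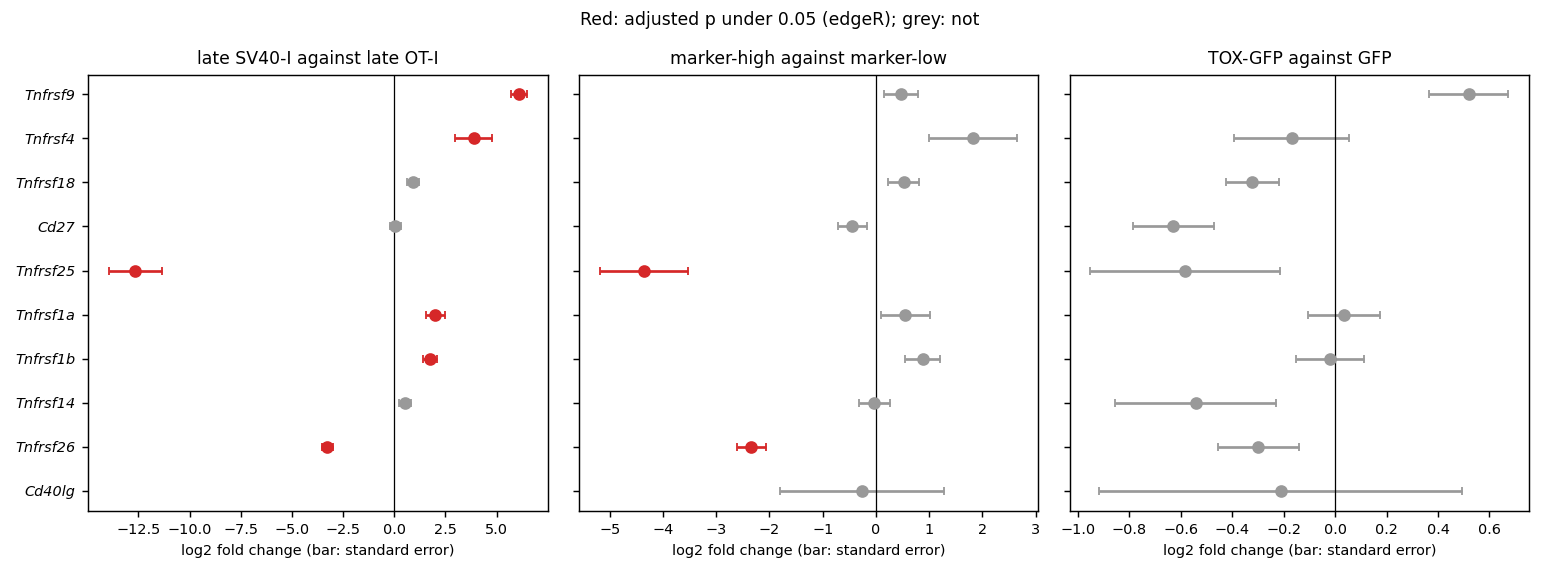
Log2 fold change (points) with its standard error (bars) of the 10 genes in 3 comparisons, each panel with its own axis. Cd40lg is left out of the first panel because all late SV40-I libraries were at 0. Called genes (red) number 7 with Cd40lg in the first panel, 2 in the second (Tnfrsf25 and Tnfrsf26) and 0 in the third.

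The TNF receptors themselves, TNFR1 (Tnfrsf1a) and TNFR2 (Tnfrsf1b), had their highest group means in late SV40-I cells. The log2 difference from marker-high cells did not pass for Tnfrsf1a (1.24 ± 0.46, edgeR adjusted p = 0.142). Nor did it for Tnfrsf1b, whose libraries overlapped (0.41 ± 0.33, adjusted p = 0.5). Tnfrsf1a had 434, 562 and 496 CPM in late SV40-I and 133, 127.0 and 127.1 CPM in late OT-I libraries, a log2 difference of 2.00 ± 0.47 (adjusted p = 0.0182). As for Tnfrsf4, the call was lost without any 1 late OT-I library (adjusted p from 0.0605 to 0.0845). Naive libraries had 141, 115 and 127 CPM, and the rise from naive to late SV40-I cells was 2.04 ± 0.47 (adjusted p = 0.00957, or 0.0895 with summed hepatocyte CPM as a covariate). Marker-low libraries had 101, 273 and 62.6 CPM and marker-high libraries 169, 123 and 357 CPM, so that both groups overlapped with naive cells, and neither passed against them.

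Tnfrsf1b, whose product has no death domain, followed the same order of ex vivo means as Tnfrsf1a. Late SV40-I libraries had 2814, 2340 and 2824 CPM against 863, 825 and 784 CPM in late OT-I libraries, a log2 difference of 1.75 ± 0.34 (adjusted p = 0.00596). Naive libraries had 292, 252 and 373 CPM, below every other ex vivo library. Late SV40-I cells exceeded them by 3.21 ± 0.36 (adjusted p = 6.44e-05) and late OT-I cells by 1.45 ± 0.34 (adjusted p = 0.0193) on the log2 scale. The latter call was lost without naive replicate 1 (0.0756), naive replicate 2 (0.0886) or late OT-I replicate 1 (0.0606), with the hepatocyte (0.196) or macrophage (0.0531) covariate, and without the 3 libraries of high hepatocyte sums (0.16). Marker-low libraries had 939, 1765 and 618 CPM and marker-high libraries 1786, 1502 and 2939 CPM, and the difference between them, 0.88 ± 0.33, did not pass (adjusted p = 0.32).

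Macrophages also express both TNF receptors. In the marker-low group, replicate 2 had the highest macrophage sum of all libraries, 8629 CPM, and the highest Tnfrsf1a and Tnfrsf1b of its group. A neutrophil list of 6 genes was also highest there, at 2191 CPM, beside 365 and 133 CPM in marker-low replicates 1 and 3. Which cells the receptor transcripts came from was not tested. In the marker-high group the highest macrophage sum, 5750 CPM, was in replicate 1, while replicate 3, at 4642 CPM, had the highest levels of both receptors. With that sum as a covariate, the log2 difference of Tnfrsf1b from naive cells was 2.31 (adjusted p = 0.0245) for marker-high and 1.48 (adjusted p = 0.0943) for marker-low cells. For Tnfrsf1a the same differences turned from 0.80 to -0.37 in marker-high cells (adjusted p = 0.79) and from 0.25 to -0.84 in marker-low cells (adjusted p = 0.446). Macrophage sums were higher in every marker-high and marker-low library than in any naive library. The sum and the group thus cannot be told apart in these differences. Late SV40-I replicate 1 had a macrophage sum of 53.4 CPM, below every naive library, with 2814 CPM of Tnfrsf1b and 434 CPM of Tnfrsf1a. With the covariate, late SV40-I cells exceeded naive cells by 3.10 for Tnfrsf1b (adjusted p = 0.00012) and by 1.78 for Tnfrsf1a (adjusted p = 0.0117) on the log2 scale.

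**Figure D3:**
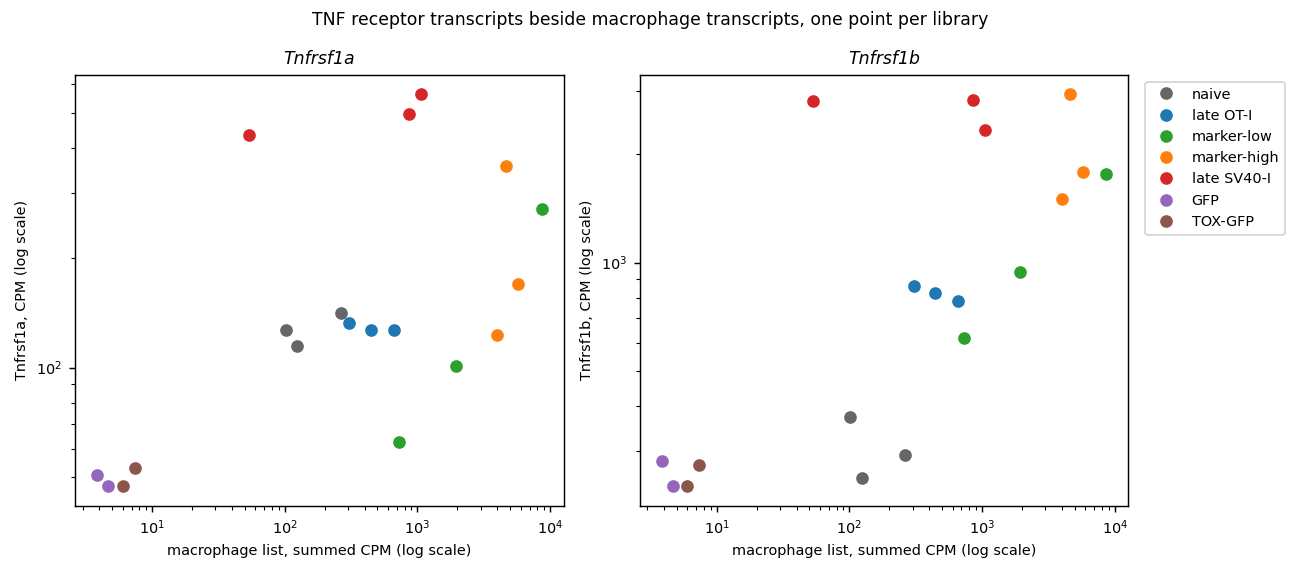
CPM of Tnfrsf1a and Tnfrsf1b (vertical, log scale) against the summed CPM of 8 macrophage genes (horizontal, log scale), 1 point per library, coloured by group. The late SV40-I libraries lie at 53.4 to 1057 CPM of macrophage transcripts, and the marker-low libraries spread from 730 to 8629.

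Tnfrsf14, which encodes HVEM, a receptor for LIGHT that also binds the inhibitory receptor BTLA, had 14.5, 19.4 and 19.2 CPM in naive libraries, more than in any other library. Late OT-I libraries had 6.45, 8.00 and 7.53 CPM, a log2 difference from naive of -1.26 ± 0.30 (adjusted p = 0.022). Marker-low libraries had 8.28, 10.9 and 7.21 CPM (adjusted p = 0.0461) and marker-high libraries 9.02, 5.83 and 11.6 CPM (adjusted p = 0.0328). All 3 falls were lost without naive replicate 2 or naive replicate 3 (adjusted p from 0.0746 to 0.129). They were also lost without any 1 late OT-I library (0.0661 to 0.0834), without marker-low replicate 1 (0.117) or 3 (0.145), without marker-high replicate 1 (0.092) or 2 (0.131), and, for the marker-low fall, without naive replicate 1 (0.0662). No fall was called without the filter on low counts (0.0644 to 0.104) or with the hepatocyte covariate (0.0996 to 0.147), and the falls in marker-high and marker-low cells were not called with the macrophage covariate (0.138 and 0.127) or in fits of the compared groups alone (0.0694 and 0.0719). The late OT-I fall was not called without the 3 libraries of high hepatocyte sums (0.31). Late SV40-I libraries had 9.39, 10.1 and 11.02 CPM and did not pass against naive (-0.72 ± 0.30, adjusted p = 0.113), nor against late OT-I cells (0.54 ± 0.30, adjusted p = 0.323).

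Cd40lg, the ligand by which helper T cells signal to CD40 on antigen-presenting cells, had 5.27, 16.8 and 5.59 CPM in late OT-I libraries and no count in any late SV40-I library. The 1118 counts of late OT-I cells put the level at least 422-fold higher than a floor of 3 counts over the late SV40-I group (adjusted p = 0.023). Without any 1 late SV40-I library, or without late OT-I replicate 2, that adjusted p was between 0.0606 and 0.0665. Marker-low libraries had 5.85, 3.36 and 2.24 CPM, marker-high libraries 3.30, 6.60 and 0 CPM, and naive libraries 0, 0 and 0.349 CPM. No difference of Cd40lg from naive cells passed, and the late OT-I difference was 6.29 ± 1.97 on the log2 scale (adjusted p = 0.0848).

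Set against naive cells, the 4 lesion groups had different counts of called members, all of them using the same 3 naive libraries as controls. In late SV40-I cells 7 of 10 were called (5 higher, 2 lower), against 18% of all genes (11.1% higher, 6.86% lower). In marker-high cells 7 were called (4 higher, 3 lower), against 23.4% (14.3% higher, 9.1% lower). In marker-low cells 6 were called (4 higher, 2 lower), against 16.8% (10.6% higher, 6.21% lower). In late OT-I cells 2 were called, Tnfrsf1b higher and Tnfrsf14 lower, against 7.35% (5.06% higher, 2.29% lower). The naive cells carried the SV40-I receptor, so only late OT-I cells differed from them in transgenic receptor too.

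**Figure D4:**
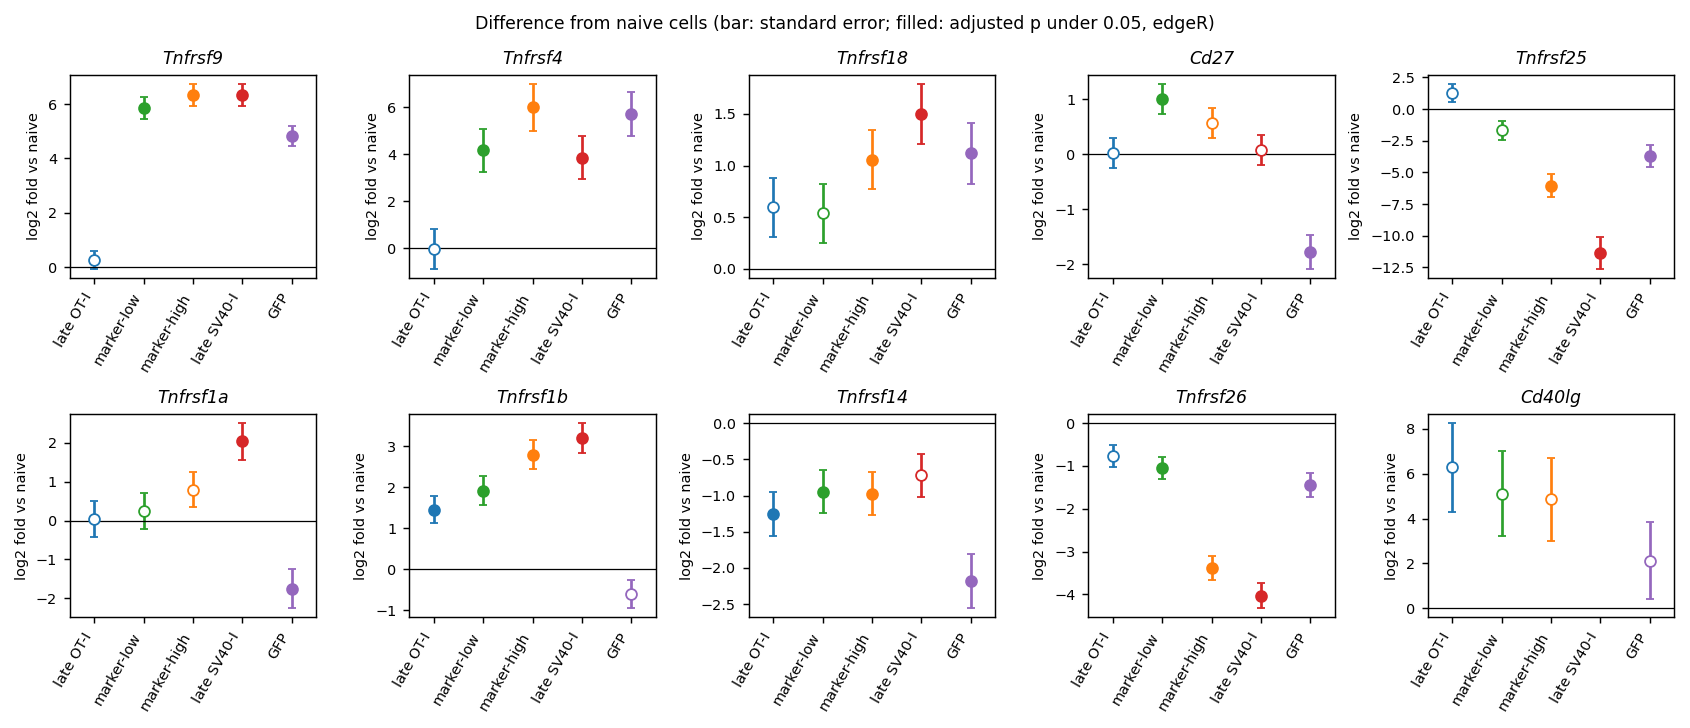
Log2 fold change from naive cells (points) with its standard error (bars) for 5 groups, with filled points for an adjusted p under 0.05. Cd40lg has no point in late SV40-I, where it was at 0, and each panel has its own axis. Tnfrsf9 is filled in every group except late OT-I, where it is 0.26.

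Cultured cells without added TOX already differed from naive cells in most members. GFP cells differed from naive cells in 8 of 10 members (3 higher, 5 lower), against 32.6% of all genes (17.6% higher, 15% lower), and in this contrast stimulation, transduction, IL-2 and growth in culture cannot be told apart. Tnfrsf9 had 829 and 633 CPM (log2 difference 4.83 ± 0.36, adjusted p = 4.63e-07), Tnfrsf4 94.0 and 73.3 CPM (5.72 ± 0.94, adjusted p = 0.000262) and Tnfrsf18 428 and 393 CPM (1.12 ± 0.30, adjusted p = 0.00919). The 3 inducible receptors were thus all higher. Tnfrsf25 was lower at 5.64 and 3.55 CPM (-3.69 ± 0.88, adjusted p = 0.00458), Tnfrsf26 at 49.3 and 56.4 CPM (-1.44 ± 0.28, adjusted p = 0.000998) and Cd27 at 165 and 172 CPM (-1.78 ± 0.31, adjusted p = 0.000434). Tnfrsf14 and Tnfrsf1a were lower too, with log2 differences of -2.18 ± 0.37 (adjusted p = 0.000344) and -1.76 ± 0.50 (adjusted p = 0.0142). Of these calls, Tnfrsf25 was lost without GFP replicate 2 (adjusted p = 0.0711) and Tnfrsf1a without GFP replicate 1 (0.101) or 2 (0.109). Tnfrsf1b had 280 and 240 CPM, overlapping the naive libraries, and did not pass (-0.60 ± 0.35, adjusted p = 0.203).

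TOX is a DNA-binding protein known for its part in T cell exhaustion. With TOX added in culture, no member was called by edgeR, and neither was any other gene (0%), Tox itself included. Without adjustment, 3 members and 1906 of 14614 genes had an edgeR p under 0.05. DESeq2 called 560 genes and 1 member. TOX-GFP libraries had 1005 and 1095 CPM of Tnfrsf9, both above the GFP libraries, with a log2 difference of 0.52 ± 0.15 (adjusted p = 0.289). Tnfrsf18 had 330 and 329 CPM, both below GFP (-0.32 ± 0.10, adjusted p = 0.302). With GFP replicate 1 left out Tnfrsf9 passed (adjusted p = 0.0289), and with GFP replicate 2 left out Tnfrsf18 did (adjusted p = 0.0436), each with the lone GFP library assumed to vary like the TOX-GFP pair. Cd27 had 124 and 94.1 CPM, also below GFP, by -0.63 ± 0.16 (adjusted p = 0.248), and this was the member DESeq2 called (adjusted p = 0.0171). Tnfrsf14 had 3.71 and 3.25 CPM (-0.54 ± 0.31, adjusted p = 0.513). The libraries of 5 members did not overlap, against 47.3% of all genes.

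Tnfrsf25 in TOX-GFP libraries had 2.49 and 3.66 CPM, overlapping GFP (-0.58 ± 0.37, adjusted p = 0.548), and Tnfrsf26 had 46.6 and 39.4 CPM (-0.30 ± 0.16, adjusted p = 0.479). Their gaps between marker-high and marker-low cells were larger, and the difference between the TOX effect in culture and the marker gap was 2.10 ± 0.38 for Tnfrsf26 (adjusted p = 0.114) and 3.84 ± 1.12 for Tnfrsf25 (adjusted p = 0.533) on the log2 scale. Neither passed in edgeR, where 0.0269% of genes did, and both passed in DESeq2 (adjusted p = 7.6e-05 and 0.0233). Tnfrsf4, Tnfrsf1a, Tnfrsf1b and Cd40lg overlapped between TOX-GFP and GFP libraries, with log2 differences of -0.17 ± 0.22, 0.03 ± 0.14, -0.02 ± 0.13 and -0.21 ± 0.71.

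To compare members with each other, CPM was divided by exon length. On this scale of CPM per kb, the 10 genes summed to 490 ± 16.1 (SD, n = 3) in naive, 688 ± 47.8 in late OT-I, 1294 ± 98.3 in marker-low, 1737 ± 272 in marker-high and 1911 ± 120 in late SV40-I cells, and to 781 and 807 in the means of GFP and TOX-GFP cells. Cd27 led in naive cells with 38.9% of the sum. Tnfrsf1b led in late OT-I cells with 31.3% and in late SV40-I cells with 36.4%. Tnfrsf9 led in marker-low (31%), marker-high (32.8%) and TOX-GFP (47.8%) cells and made up 1.48% of the sum in naive and 1.27% in late OT-I cells. In GFP cells Tnfrsf18 with 34.5% and Tnfrsf9 with 34.4% were level. The share of Tnfrsf18 is uncertain, as 27.2% of its exon length overlaps another gene. These shares are a description and were not tested.

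**Figure D5:**
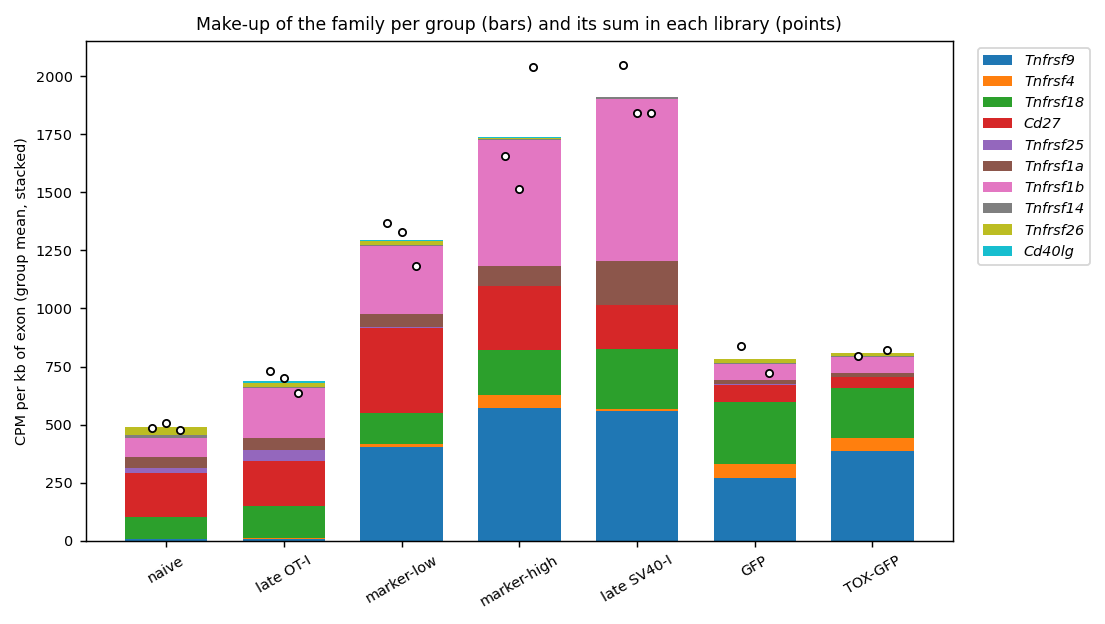
Stacked group means of the 10 genes in CPM per kb of exon (bars from 0), with the sum in each library as open points. The late SV40-I libraries sum to 1841 to 2050 and the naive libraries to 476 to 508, and the largest added blocks are Tnfrsf9 and Tnfrsf1b.

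The order of the 7 groups, by mean CPM, separated the members. For Tnfrsf9 it ran marker-high (1552 ± 206, SD), late SV40-I (1516 ± 265), marker-low (1093 ± 41.1), TOX-GFP (1050 ± 63.1), GFP (731 ± 138), late OT-I (23.7 ± 10.1) and naive (19.7 ± 8.74). Neighbours whose libraries overlapped were marker-high with late SV40-I, marker-low with TOX-GFP, and late OT-I with naive. For Tnfrsf25 it ran late OT-I (110.1 ± 2.52), naive (45.9 ± 5.06), marker-low (13.6 ± 2.76), GFP (4.60 ± 1.47), TOX-GFP (3.07 ± 0.827), marker-high (0.676 ± 0.61) and late SV40-I (0.0138 ± 0.0238), with overlap between the cultured groups and between the last 2. Scaling by TMM library sizes lowered the cultured groups against the others and reversed the order of the means of 9 pairs of groups over all members, 3 of them of Cd27 among naive and the late groups. It reversed the order of marker-high and TOX-GFP cells for Tnfrsf18 (296 and 329 CPM unscaled, 310.2 and 276 scaled), of GFP and late SV40-I cells for Tnfrsf18 (411 and 389 CPM unscaled, 333 and 417 scaled) and of GFP and marker-high cells for Tnfrsf4 (83.7 and 76.4 unscaled, 67.9 and 79.3 scaled).

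Genes with the most similar pattern were sought by Pearson correlation of log2(CPM + 0.5) over the 19 libraries among 9580 genes. The libraries fall into groups, so these values mostly describe group means. For Tnfrsf9, Adap1 was among the 3 closest genes (r = 0.934). Tnfrsf25 was closest to RP24-547D11.2 (0.965), Rasgrp2 (0.962) and S1pr1 (0.94), and Tnfrsf26 to Lef1 (0.967), Entpd5 (0.956) and Arid5a (0.955). S1pr1 encodes a receptor that guides T cells out of lymphoid organs, and Lef1 a transcription factor of naive T cells. Tnfrsf1b was closest to Calhm2 (0.972), Ccrl2 (0.969) and Xdh (0.968), and Tnfrsf1a to Slc38a10 (0.962), Abi3 (0.956) and Cyb5r3 (0.953). Tnfrsf4 was closest to Tpi1 (0.932), Prelid2 (0.926) and Capg (0.924), Tnfrsf18 to Tceal9 (0.905), Aplp1 (0.896) and Ngfrap1 (0.896), and Tnfrsf14 to Dusp10 (0.945), Lipa (0.931) and Btg2 (0.919). Cd27 was closest to Dhrs1 (0.948), Uqcrc1 (0.938) and Sec22b (0.935), and Cd40lg to Rom1 (0.887), Wdr95 (0.864) and Pald1 (0.855).

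The ligands of these receptors, of which antigen-presenting cells are a usual source, differed widely in level. Tnfsf18 (the ligand of GITR) had no count in any library, and the means of Tnfsf15 (TL1A) and Cd70 were at most 0.221 and 0.522 CPM. Tnfsf9, the ligand of 4-1BB, had a mean of 1.957 ± 0.586 CPM in naive, 33.1 ± 9.75 in marker-low, 17.8 ± 8.05 in marker-high, 10.9 ± 1.92 in late SV40-I and 9.96 ± 4.24 in late OT-I cells. Its log2 difference between the late groups, 0.16 ± 0.44, did not pass the test (adjusted p = 0.89). Tnfsf4, the ligand of OX40, was at 0 in naive libraries and had means of 3.04 CPM in marker-low, 6.02 in marker-high and 7.92 in GFP cells.

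Among 14 tested ligands and partners, late SV40-I cells had Tnfsf8 (CD30 ligand) higher than late OT-I cells, at 86.4 ± 33.2 against 12.7 ± 0.935 CPM (log2 difference 2.82 ± 0.47, adjusted p = 0.00217). Btla and Tnfsf14 (LIGHT), the partners of Tnfrsf14, were lower. Btla was at 1.04 ± 0.11 against 26.9 ± 10.5 CPM (-4.62 ± 0.70, adjusted p = 0.00112) and Tnfsf14 at 17.2 ± 9.14 against 82.7 ± 11.9 CPM (-2.21 ± 0.41, adjusted p = 0.00431). Between marker-high and marker-low cells, Tnfsf14 was at 22.3 ± 9.93 against 148 ± 27.2 CPM (-2.75 ± 0.42, adjusted p = 0.0103) and Tnf at 27.6 ± 18.7 against 181 ± 18.3 CPM (-2.74 ± 0.48, adjusted p = 0.0172), with no ligand higher. The Tnf call was lost without marker-low replicate 3 (0.0591) or marker-high replicate 2 (0.0754). The list's median log2 difference was 0.21 in the late comparison and -0.63 in the marker comparison, beside -0.04 and 0 over all genes.

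Of 13 other receptors tested, none was higher and 3 were lower in late SV40-I than in late OT-I cells: Fas, the death receptor for Fas ligand, Tnfrsf22 and Tnfrsf12a. Fas was at 1.67 ± 0.559 against 37.01 ± 3.16 CPM (log2 difference -4.40 ± 0.37, adjusted p = 1.65e-05). Tnfrsf12a, the receptor for TWEAK, was at 1.42 ± 0.579 against 4.89 ± 1.62 CPM (-1.72 ± 0.46, adjusted p = 0.033). In marker-high against marker-low cells Fas and Tnfrsf12a were lower as well, by -2.14 ± 0.33 (adjusted p = 0.0108) and -2.51 ± 0.47 (adjusted p = 0.023). Both Tnfrsf12a calls were weak: that between the late groups was lost without any 1 library except late OT-I replicate 1 (adjusted p from 0.0584 to 0.133), and that between the marker groups without any 1 except marker-low replicate 2 (0.0625 to 0.0842). The median of the list was -1.72 in the late comparison and -0.83 in the marker comparison, beside -0.04 and 0 over all genes.

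Of 20 adaptors and signalling genes, Traf5, which carries signals from OX40, CD27 and other receptors, was higher in late SV40-I than in late OT-I cells, at 213 ± 38.7 against 86.5 ± 16.9 CPM (log2 difference 1.37 ± 0.20, adjusted p = 0.000829). Cflar, an inhibitor of caspase-8 at death receptors, was lower, at 20.2 ± 2.64 against 52.0 ± 22.6 CPM (-1.27 ± 0.30, adjusted p = 0.0171), a call lost without late SV40-I replicate 2 or 3 or late OT-I replicate 2 (0.0536 to 0.0763). None of 12 NF-kB target genes was called between the late groups, with a list median of 0.02 on the log2 scale, nor between the marker groups, with a median of -0.26. No adaptor was called between the marker groups. No gene of the 4 lists was called between TOX-GFP and GFP cells. Without the 3 libraries of high hepatocyte sums, of the listed genes called between the late groups only Fas kept its call (adjusted p from 0.0502 to 0.47 for the others), and in a fit of the marker groups alone no listed gene kept its call between them (0.105 to 0.133).

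Against naive cells the ligands and partners were the list with the most genes higher in each lesion group. Of 14 tested, 8 were higher and 2 lower in late SV40-I cells (11.1% and 6.86% of all genes), and 5 were higher and 0 lower in late OT-I cells (5.06% and 2.29%). In marker-high cells 7 were higher and 2 lower (14.3% and 9.1%), and in marker-low cells 8 were higher and 0 lower (10.6% and 6.21%). Of the 13 other receptors, 1 was higher and 5 lower in late SV40-I, 1 higher and 1 lower in late OT-I, 3 higher and 4 lower in marker-high and 3 higher and 0 lower in marker-low cells, beside the same shares of all genes. In GFP cells 8 of 20 adaptors and signalling genes were higher than in naive cells and 7 lower, beside 17.6% and 15% of all genes.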

How the data were processed

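Per the labels' protocols, sorted CD8 T cells gave RNA that was amplified (SMART-seq V4), turned into Kapa libraries and read from both ends. The authors deposited whole-number counts of fragments per gene, one table per library, not normalized. Per the file headers, featureCounts 1.6.2 counted read pairs over GENCODE M17 exons (GRCm38), pooled exons by gene name and used no strand option. The submitters' processing notes also name FastQC, STAR and DESeq2, whose versions are not given in the sources used. Reads carry no molecular identifiers, so counting intervals and the floor of 3 counts cover counting error only.

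CPM is a gene's count per 1000000 counts of its library, given as mean ± SD. Tests were edgeR 4.0.16 quasi-likelihood F tests in R 4.3.3 (TMM, filterByExpr, robust) on the counts, with Benjamini-Hochberg adjustment over all genes and calls at an adjusted p under 0.05. The 15 ex vivo libraries were fitted together (16404 genes), the 4 cultured ones apart (14614), and all 19 together (18608) for contrasts that join them. SE values were worked back from the F statistic. A gene at 0 in a group was compared with 3 counts over the group, and with 1 to 3 counts a 95% counting interval of the ratio is given. Alternatives used DESeq2 1.42.0, other scaling, filters, blocks, covariates and left-out libraries. On simulated counts with 2-fold and 8-fold changes, edgeR recovered 10% and 81% for late SV40-I against late OT-I, 68% and 100% for TOX-GFP against GFP and 5% and 84% for GFP against naive. Those counts were drawn from the fitted spread of each gene, so the recovery holds for that spread only. In the data edgeR did not call Tox itself, at means of 137 CPM in TOX-GFP and 17.6 CPM in GFP. The simulated recovery is thus no measure of what the TOX-GFP test could find.

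The members and lists were chosen with earlier results of these data known. All 10 members were named, with up to 4 called genes of each pathway list in each direction in the first 3 comparisons, the members' ligands, and the 3 genes of closest pattern per member with at least 10 CPM in a group mean. For Tnfrsf9, 2 of those 3 are not reported here. Tnfrsf23 and Tnfsf9's test were added after their values were seen. Replicates within a group differed by more than sampling noise (chi-square of 29.9 to 485 for each degree of freedom). No label says that replicates are separate animals or cultures, and p-values then measure only the spread of these samples, which may be technical. Among groups sharing 3 replicate numbers in the titles, same-numbered replicates deviated together (r over 0.1) in every pair between naive and marker-high cells alone (r from 0.169 to 0.294). Promoter windows are those of RefSeq (GRCm38.p6), the most upstream start where a gene has several, and 8 of 10 members matched.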

Additional observations from a re-analysis of the deposited data

Results flagged for a closer look

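Tnfrsf9 and Tnfrsf25 differed between late SV40-I and late OT-I cells by more than between marker-high and marker-low cells, by a test of the difference of the log2 differences. For Tnfrsf9 it was 5.61 ± 0.48 (edgeR adjusted p = 0.000131), from 6.08 in the late groups and 0.48 in the marker groups. For Tnfrsf25 it was -8.29 ± 1.45 (adjusted p = 0.0127), from -12.6 and -4.36, with only 2 counts in the late SV40-I group. No group had 4 or more libraries, so single libraries could not be screened by their distance from the rest.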

How the results depend on the processing

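Of 1325 alternative values for the members, 1175 kept their direction and side of the threshold, 82 lost the call, 28 gained one and 40 changed sign, the last only among values not called. Calls that held in every alternative run included Tnfrsf9 in late SV40-I against late OT-I and against naive in all groups but late OT-I, Tnfrsf25 and Tnfrsf26 in late SV40-I against late OT-I and naive and in marker-high against naive, and Tnfrsf1b in late SV40-I and marker-high against naive. The macrophage covariate was added after seeing the data. Hepatocyte sums of all lesion libraries lay above those of every naive library. So did macrophage sums of the marker-low, marker-high and late OT-I libraries. In those groups, differences from naive fitted with these covariates cannot tell the sum from the group. Except where fewer samples or genes entered the fit, the cause of a change was not tested.

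With DESeq2 the genes called were 2446 in late SV40-I against late OT-I, 737 between the marker groups, 2354, 4307 and 2199 in late OT-I and marker-low against naive and late SV40-I against marker-high, 560 with TOX, and 765 and 155 for the 2 differences of differences; members called were 4 in late OT-I against naive, 3 in late SV40-I against marker-high, 1 with TOX and 2 for the difference of the TOX and marker effects. Other scaling gave 3 genes for the latter in place of 5. Without the filter 6 genes were called with TOX, and 1 member in late OT-I against naive. A stricter filter gave 2 members in late SV40-I against marker-high. Fits of the compared groups alone called 4 genes and 0 members between the marker groups, 325 genes and 0 members in late SV40-I against marker-high, and 5 members in late OT-I against naive.

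With the replicate numbers of the table headings as a block, genes called fell to 963 (from 1479) between the late groups and to 25 (from 196) between the marker groups, with 1 member. With the title numbers as a block, members called stayed at 7, 2, 7, 2 and 7 for the late, marker, late SV40-I, late OT-I and marker-high (against naive) comparisons, and genes called were 1430, 144, 2868, 1061 and 3825. Among groups that share 3 numbers, every pair passed the limit between naive and marker-high cells alone, where the block changed no member's call; the correlations elsewhere ran from -0.471 to 0.373. GFP and TOX-GFP cells share 2 numbers (r = 0.157), too few to count as paired. In marker-low against naive it left 5 of 6 members (Tnfrsf14, adjusted p = 0.0624).

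The hepatocyte covariate called 551 genes and 0 members in late OT-I, 2040 genes in marker-high and 1552 genes and 3 members in marker-low against naive. Without hepatocyte-rich libraries it was 227 genes and 3 members between the late groups and 414 genes and 0 members in late OT-I against naive. The macrophage covariate gave 1428 genes in marker-high and 1240 genes and 2 members in marker-low, 1 member in late OT-I against naive, and 154 genes and 0 members in late SV40-I against marker-high.

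Signs changed for Cd27 between the late groups (-0.077 and -0.032 with the hepatocyte and macrophage covariates, -0.18 without hepatocyte-rich libraries), and, in late OT-I against naive, for Tnfrsf9 (-0.41 with the hepatocyte covariate, -0.60 without those libraries), Tnfrsf4 (0.42 with the title block), Tnfrsf1a (-0.50 and -0.32 with the covariates) and Cd27 (-0.021 with a stricter filter, -0.0049 with the block, -0.011 in the groups alone). Tnfrsf1a against naive was -0.37 in marker-high and -0.84 in marker-low with the macrophage covariate, and -0.29 in marker-low with the hepatocyte one.

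Leaving out each library in turn, genes and members called were 872 to 1111 and 4 to 6 between the late groups, 38 to 159 and 1 to 2 between the marker groups, 773 to 861 and 0 to 1 in late OT-I, 2414 to 3581 genes in marker-high, 1402 to 2174 and 3 to 6 in marker-low against naive, 311 to 1669 and 0 to 4 in late SV40-I against marker-high, 0 to 1400 and 0 to 1 with TOX, and 3760 to 5324 genes in GFP against naive. The highest TOX count came without GFP replicate 2 and the highest for late SV40-I against marker-high without marker-high replicate 3. Values that changed sign or fell to 0 ranged, between the late groups, from -0.23 to 0.22 (Cd27); between the marker groups, from -0.026 to 1.35 (Tnfrsf1a), -0.28 to 0.20 (Tnfrsf14) and -1.25 to 0.32 (Cd40lg); in late SV40-I against naive, from -0.21 to 0.24 (Cd27) and -5.91 to 0 (Cd40lg, at 0 where neither group had a count left); in late OT-I against naive, from -0.52 to 0.96 (Tnfrsf4), -0.025 to 0.12 (Tnfrsf1a) and -0.14 to 0.18 (Cd27); in marker-low against naive, from -0.63 to 0.62 (Tnfrsf1a); in late SV40-I against marker-high, from -0.14 to 0.13 (Tnfrsf9); and with TOX, from -0.46 to 0.079 (Tnfrsf4), -0.054 to 0.12 (Tnfrsf1a), -0.14 to 0.10 (Tnfrsf1b) and -0.99 to 0.35 (Cd40lg). Of 70 group levels, 16 moved by more than 1 SD under TMM library sizes, mostly in cultured cells (Tnfrsf9 in TOX-GFP from 1050 to 881 CPM).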
